A study of Homo sapiens with 24 samples.

Results

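Molecular chaperones of the cytosol and of the endoplasmic reticulum were followed through a CRISPR interference (CRISPRi) experiment in K562, a human erythroleukaemia cell line. The genes were chosen by name: HSPA1A, HSPA1B, HSPA8, HSP90AA1, HSPB1 and DNAJB1 for the cytosol, and HSPA5, HSP90B1, CALR and PDIA4 for the reticulum. Of these 10 genes, 8 are described, 5 of 6 cytosolic and 3 of 4 reticulum genes, out of 21925 gene entries in the counts table. HSPA8 and HSPA5 were not analysed here. All 8 passed the filter on low counts that left 13147 genes for testing. The members' names, not their counts, set the choice, but it was made with results of these data known.

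The K562 cells of every group carried a doxycycline-inducible Cas9 that cannot cut DNA, fused to the KRAB repressor domain, which silences the site that a single guide RNA (sgRNA) leads it to. Each culture was transduced with 1 sgRNA and given doxycycline for 24 hours, controls included, so that no group lacks the repressor or the drug. There were 24 libraries of polyadenylated RNA from 8 sgRNAs with 3 biological replicates each. GATA1TSS-Guide1 and GATA1TSS-Guide2 are directed at the transcription start site of GATA1 (6 libraries), eHDAC6-Guide1 and eHDAC6-Guide2 at eHDAC6, a putative enhancer of GATA1 (6 libraries), and NC-Guide1 to NC-Guide4 at nothing in the genome (12 libraries, NC for negative control). Repression with these sgRNAs is partial and is read after 1 day, in a single cell line, and the labels name no heat exposure and no agent that disturbs protein folding.

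Chaperones bind unfolded or partly folded proteins and keep them from aggregating while they fold. In the cytosol, HSP70 and HSP90 proteins do this with energy from ATP and with the help of co-chaperones, small heat shock proteins hold unfolded chains without ATP, and the transcription factor HSF1 switches the genes on when unfolded protein accumulates. In the endoplasmic reticulum, an HSP90 paralog, the lectin chaperones and the protein disulfide isomerases fold secreted and membrane proteins, and their genes answer to the unfolded protein response through ATF6 and XBP1. In maturing red cells chaperones accompany a very large output of globin, and nuclear HSP70 is known to protect the GATA1 protein from cleavage by caspases.

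GATA1, the erythroid transcription factor whose gene was targeted, had 363 ± 28.9 CPM (counts scaled to 1000000 per library; SD, n = 12) in the control libraries, 254 ± 8.72 (n = 6) with eHDAC6 and 84.8 ± 37.1 (n = 6) with GATA1TSS. Every targeted library lay below the lowest control library, NC-Guide2 replicate 1 at 281 CPM. Library totals ran from 4290343 to 23205811 counts, and the smallest was that of GATA1TSS-Guide2 replicate 2. The globin gene HBG1 had 1741 to 3724 CPM, whereas CD14, KRT5, MS4A1 and CD3E, which mark monocytes, epithelium and lymphocytes, did not exceed 1.28 CPM in any library. EPCAM (40.9 to 82.2 CPM) and COL1A1 (4.68 to 28.7), also listed as markers of epithelium and fibroblasts, were detected in all 24 libraries.

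The control libraries stood in 2 sets, a split found in the data and not in the labels. On principal component 1 of the control libraries (26.1% of their variance), NC-Guide3 replicates 2 and 3 together with NC-Guide4 replicates 2 and 3 (here the 4 control libraries) scored between 17.2 and 28.9, and the other 8 libraries between -13.3 and -7.38. The summed level of 12 genes of the integrated stress response, which cells switch on when translation or amino acid supply is disturbed, was 1549 to 1923 CPM in the 4, 3154 to 4727 in the other 8, 1078 to 1477 with GATA1TSS and 1109 to 1732 with eHDAC6. For this reason the differences of the chaperones from the controls are set beside those from the 4 alone and from the other 8 alone. Of the 8 chaperone genes, 3 were higher in the 4 without overlap, as were 5.83% of all tested genes. HSPA1A and HSPA1B, close copies whose counts are uncertain apart, are 2 of these 3. The part of the split in the differences from NC was not tested.

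Per kilobase of the longest deposited gene model, a scale that allows a rough comparison of genes, the 8 chaperone genes spanned a wide range over the 24 libraries. CALR had the highest mean level, 831 CPM per kb, followed by HSPB1 (542), HSP90AA1 (493) and HSP90B1 (389). PDIA4 (204), HSPA1A (188) and HSPA1B (176) were lower, and DNAJB1 was lowest at 36.5 CPM per kb. Of the 50-base windows of HSPA1A and HSPA1B, 72.6% and 73.5% recur in transcripts of other genes, so the place of these genes on this scale is uncertain. Among libraries of the same sgRNA, the coefficient of variation of the CPM was smallest for PDIA4 (6.94%) and largest for HSP90B1 (14.7%). Across all 24 libraries the highest value was 2.01 times the lowest for HSPB1 and 1.90 times for HSP90AA1, but only 1.33 times for DNAJB1.

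**Figure D1:**
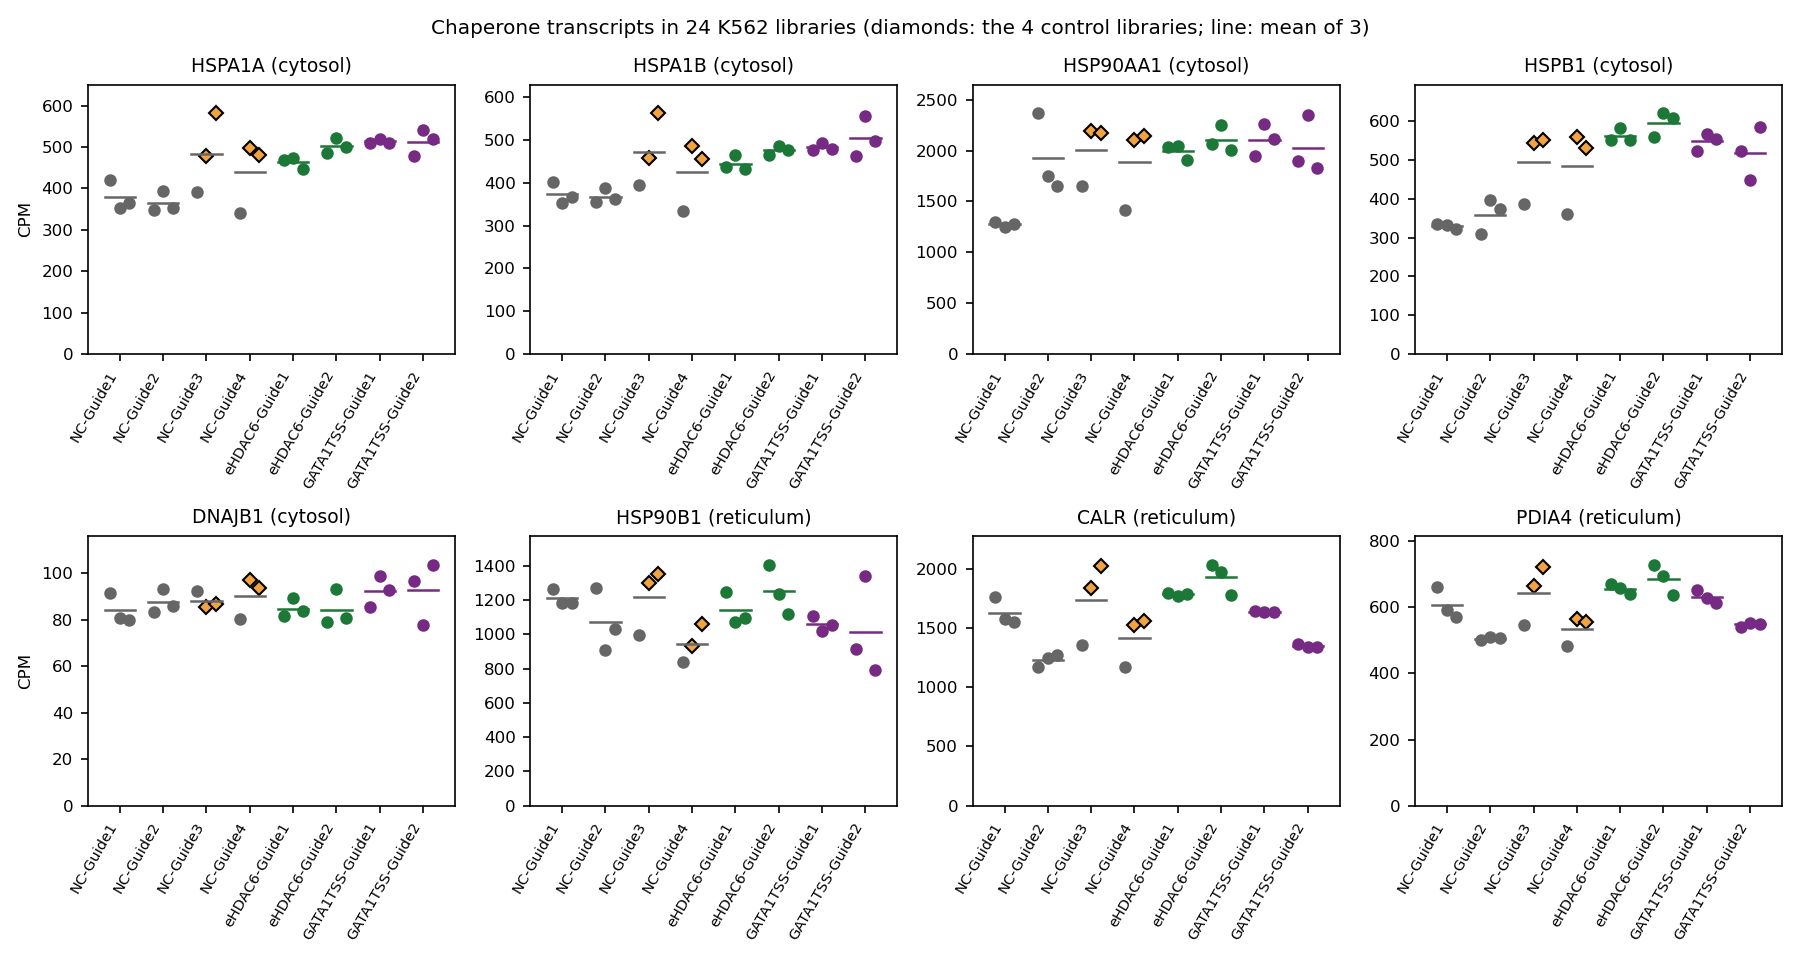
Level of each chaperone transcript (CPM, y axis from 0) in each of the 24 libraries, by sgRNA (x axis); points are libraries, lines are means of 3, and orange diamonds are the 4 control libraries. HSPB1 stands at 532 to 557 CPM in the diamonds and at 309 to 396 in the other control libraries, and CALR is lower with GATA1TSS-Guide2 (1337 to 1367 CPM) than with either eHDAC6 sgRNA (1768 to 2032).

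The cytosolic genes share a feature of their promoters that the choice by name did not use. HSF1 binds inverted repeats of a short unit, and the core of such a pair, GAANNTTC (its own reverse complement, so that both strands are read together), was searched in the 250 bases before each RefSeq transcript start (GRCh38.p14). All 8 genes were found in that table, with 12 starts among them. The pair occurred at a start of 5 of 5 cytosolic genes and of 0 of 3 reticulum genes, against 7.05% of 27305 genes in the table (5.78% of 35116 windows). HSPA1A and HSPA1B, 2 of the 5, are close copies with similar windows. Of the other cytosolic HSP70 and HSP90 genes and co-chaperones 4 of 20 held it, and of the other reticulum folding genes 3 of 15. The windows of 3 genes called higher against all 12 controls, and of DNAJB1, which was not called, are shown, read 5′ to 3′ on the gene's strand, with GAANNTTC and TTCNNGAA matches in capitals.
HSPA1A (chr6:31815293-31815542, plus strand): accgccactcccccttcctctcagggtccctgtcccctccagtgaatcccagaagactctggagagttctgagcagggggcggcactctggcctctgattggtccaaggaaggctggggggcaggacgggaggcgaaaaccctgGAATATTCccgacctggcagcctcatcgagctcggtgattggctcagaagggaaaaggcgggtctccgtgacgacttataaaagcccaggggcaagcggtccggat
HSPB1 (chr7:76302423-76302672, plus strand): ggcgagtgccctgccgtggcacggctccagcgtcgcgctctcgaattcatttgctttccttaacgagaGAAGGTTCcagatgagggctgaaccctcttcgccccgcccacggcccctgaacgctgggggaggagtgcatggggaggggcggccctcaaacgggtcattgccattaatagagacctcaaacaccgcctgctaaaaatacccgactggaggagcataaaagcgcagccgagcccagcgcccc
HSP90AA1, second listed start (chr14:102087045-102087294, minus strand): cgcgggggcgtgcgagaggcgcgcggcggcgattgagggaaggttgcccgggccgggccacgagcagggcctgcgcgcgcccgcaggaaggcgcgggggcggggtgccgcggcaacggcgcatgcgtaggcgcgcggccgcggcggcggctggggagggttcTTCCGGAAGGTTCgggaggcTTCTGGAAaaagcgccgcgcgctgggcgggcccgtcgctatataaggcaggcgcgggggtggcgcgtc
DNAJB1, second listed start (chr19:14518398-14518647, minus strand): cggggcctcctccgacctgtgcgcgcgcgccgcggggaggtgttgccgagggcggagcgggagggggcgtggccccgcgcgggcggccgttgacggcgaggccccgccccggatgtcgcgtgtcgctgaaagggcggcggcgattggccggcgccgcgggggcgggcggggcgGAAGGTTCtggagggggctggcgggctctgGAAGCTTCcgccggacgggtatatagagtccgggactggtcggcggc

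In HSPA1A the match GAATATTC ends 98 bases before the start, and HSPA1B holds the same letters 97 bases before its own start. HSPB1 has 1 match, 174 bases before the start. HSP90AA1 holds 3 units in a row, TTCCGGAAGGTTC, a pattern (GAANNTTC with a further NNGAA behind it, or the reverse complement) found in 0.441% of the windows, and further down a TTCNNGAA match, a pattern found in 6.62%. The 3-unit match contains both kinds of pair. DNAJB1 has 2 GAANNTTC matches at this start and none at its other 2 starts. Such matches are letters in a window, and binding was not measured.

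HSPA1A and HSPA1B, neighbouring single-exon genes that encode the same stress-inducible HSP70 protein, are at 31783291 to 31785719 and 31795512 to 31798031 on the plus strand of chromosome 6 (hg19, the build of the deposited gene models). Of the 50-base windows of the HSPA1A transcript, 72.6% also occur in HSPA1B, so counts of these genes could be split between them and are uncertain apart. The ratio of HSPA1B to HSPA1A counts ran only from 0.932 to 1.02 over the 24 libraries. HSPA1A stood at 342, 393 and 581 CPM (lowest, median and highest) in the 12 control libraries, at 478, 515 and 542 in the 6 GATA1TSS libraries and at 446, 479 and 521 in the 6 eHDAC6 libraries. Each targeted library lay above the control mean, but the ranges overlapped: the 4 control libraries, at 478 to 581 CPM, lay at the level of the targeted ones. In bulk libraries a change in the makeup of the culture and a change of RNA per cell cannot be told apart.

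HSPA1A was higher with GATA1TSS than with NC by 0.31 on the log2 scale (SE 0.07; adjusted p = 0.00147 after Benjamini-Hochberg in edgeR's quasi-likelihood test, as for every adjusted p here) and with eHDAC6 by 0.22 (SE 0.07, adjusted p = 0.0193). In this fit SE and p measure the spread among libraries of the same sgRNA, not that between sgRNAs. HSPA1B had 334, 391 and 561.9 CPM in the control libraries, 463, 486 and 555 with GATA1TSS and 432, 465 and 486 with eHDAC6, again with overlap. It was higher by 0.28 (SE 0.07, adjusted p = 0.00252) and 0.18 (SE 0.07, adjusted p = 0.0465). Its eHDAC6 call was lost in 17 of the 24 fits that left out 1 library, with adjusted p up to 0.11. Against the 4 control libraries the HSPA1A differences were 0.01 (adjusted p = 0.953) and -0.08 (adjusted p = 0.533), and against the other 8 they were 0.50 and 0.41. Those of HSPA1B were 0.01 and -0.09 against the 4, both uncalled, and 0.45 and 0.35 against the other 8.

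HSP90AA1, the inducible HSP90 of the cytosol, is at 102547075 to 102606086 on the minus strand of chromosome 14 (hg19). It had 1244, 1703 and 2366 CPM in the control libraries, 1834, 2029 and 2352 with GATA1TSS and 1909, 2039 and 2252 with eHDAC6. The groups overlapped, and the control libraries were spread more widely than the targeted ones: NC-Guide1 stood at 1276 ± 29 CPM (n = 3), while NC-Guide2 replicate 1, the control library with the lowest GATA1, had the highest HSP90AA1 of all 24. The log2 difference from NC was 0.24 with GATA1TSS (SE 0.08, edgeR adjusted p = 0.0322) and 0.23 with eHDAC6 (SE 0.08, edgeR adjusted p = 0.0378), and against the 4 control libraries it was -0.06 and -0.07, both uncalled. Without the sgRNA NC-Guide1 it was 0.09 and 0.07, also uncalled. The GATA1TSS call was lost without GATA1TSS-Guide1 replicate 2 (adjusted p = 0.0884) or 3 (0.0586), GATA1TSS-Guide2 replicate 2 (0.122), or NC-Guide2 replicate 2 (0.0549) or 3 (0.0528), and the eHDAC6 call without any 1 of the 6 eHDAC6 libraries, NC-Guide1 replicate 2, NC-Guide2 replicate 2 or 3, or NC-Guide3 replicate 1 (adjusted p 0.0502 to 0.0969). Among the 4 NC sgRNAs the fitted HSP90AA1 means spanned 0.65 on the log2 scale. Of the 50-base windows of HSP90AA1 17.5% recur in transcripts of other genes.

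HSPB1, the small heat shock protein HSP27, is at 75931875 to 75933614 on the plus strand of chromosome 7 (hg19) and has 3 exons. Its values by replicate were 336, 332 and 323 CPM with NC-Guide1, 309, 396 and 372 with NC-Guide2, 387, 544 and 552 with NC-Guide3, and 359, 557 and 532 with NC-Guide4. With the targeting sgRNAs they were 523, 567 and 554 (GATA1TSS-Guide1), 522, 448 and 584 (GATA1TSS-Guide2), 550, 582 and 552 (eHDAC6-Guide1) and 559, 620 and 607 (eHDAC6-Guide2). All 12 targeted libraries lay above the highest of the 8 control libraries, 396 CPM (groups stood apart in this way for 4.71% of genes with GATA1TSS and 7.96% with eHDAC6), and the 4 other controls, at 532 to 557, lay inside the targeted range. In order of their means, from eHDAC6-Guide2 (595 CPM) down to NC-Guide1 (330.3), each sgRNA overlapped with the next.

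Of the cytosolic genes HSPB1 had the largest difference from all 12 controls with either element, a log2 difference of 0.38 with GATA1TSS (SE 0.08, edgeR adjusted p = 8.06e-04; 1.30-fold) and 0.49 with eHDAC6 (SE 0.08, edgeR adjusted p = 6.85e-05). Against the other 8 control libraries the differences were 0.60 and 0.72. Against the 4 they were -0.04 (95% interval -0.16 to 0.09) and 0.08 (-0.05 to 0.20), and neither was called (adjusted p = 0.785 and 0.586). Among the 4 NC sgRNAs the fitted HSPB1 means spanned 0.58, a spread that the SE and p of an element leave out. HSPB1 shares 11.4% of its 50-base windows with its pseudogene HSPB1P1.

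DNAJB1, the HSP40 co-chaperone that hands unfolded proteins to HSP70, is at 14625576 to 14629371 on the minus strand of chromosome 19 (hg19). It carried the heat shock pair as the others did, but its level hardly varied: 80.0, 86.4 and 97.2 CPM in the control libraries, 77.8, 94.8 and 104 with GATA1TSS and 79.0, 82.5 and 93.2 with eHDAC6. It was called in none of the comparisons given here. The log2 differences from NC were 0.09 (95% interval -0.03 to 0.21) and -0.05 (-0.17 to 0.07).

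Counted together, 4 of 5 cytosolic genes were called higher with GATA1TSS against all 12 controls, where 27.2% of all tested genes were called and 13.5% were called higher. With eHDAC6 it was the same number, 4 of 5, where 31.1% of all genes were called and 15.8% were called higher. HSPA1A and HSPA1B, whose counts are uncertain apart, are 2 of the 4 with either element. The median log2 difference of the 5 was 0.28 and 0.22, beside -0.00 and -0.01 over all genes tested. Against the 4 control libraries 0 of 5 were called with either element, where 10.4% (GATA1TSS) and 1.49% (eHDAC6) of all genes were called, and the medians were 0.01 and -0.08. At an unadjusted p under 0.05 the number was 0 as well. Both elements are compared with the same control libraries, so their values are not independent of each other.

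Within the controls several of these genes stood apart as well. In the 4 control libraries HSPA1A stood at 509 ± 48.6 CPM (n = 4) against 371 ± 27.8 (n = 8) in the others, HSPA1B at 490 ± 49.8 against 369 ± 23.4, and HSPB1 at 546 ± 11.2 against 352 ± 31.6. The libraries of these 3 genes did not overlap between the sets, as for 5.83% of all tested genes in that direction. HSP90AA1 averaged 2153 and 1584 CPM, but overlapped through NC-Guide2 replicate 1. Of the reticulum genes 0 of 3 stood apart, CALR averaging 1735 ± 239 and 1387 ± 218 CPM. No test was made between sets that were found in the data. In the test between the 4 NC sgRNAs, which the labels define, HSPA1A (adjusted p = 0.0456), HSP90AA1 (0.0151) and HSPB1 (0.0124) were called, as were CALR (0.0137) and PDIA4 (0.0217), 5 of 8 members where 12.2% of all genes were called (edgeR). Without NC-Guide2 replicate 1 that number was 2, of a total of 260 genes in place of 1607, and CALR and PDIA4 were among those lost. PDIA4 was also lost without NC-Guide3 replicate 2 or 3, HSP90AA1 without NC-Guide1 replicate 2, and HSPA1A in 19 of the 24 fits that left out 1 library. HSPB1 was kept in all 24.

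**Figure D2:**
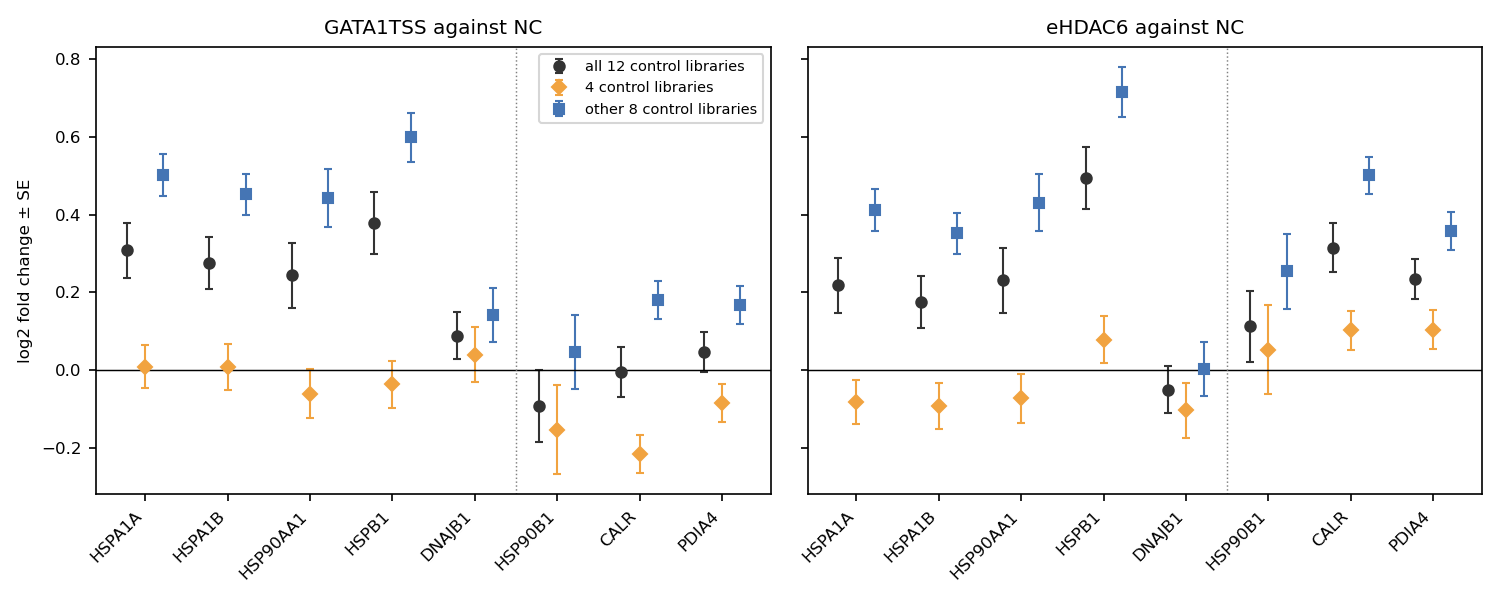
Log2 fold change (y axis, bars ± SE of the edgeR fit) of each chaperone gene (x axis; cytosol left of the dotted line, reticulum right) for GATA1TSS and for eHDAC6 against all 12 control libraries (circles), the 4 (diamonds) and the other 8 (squares). The HSPB1 value with eHDAC6 is 0.49, 0.08 and 0.72 against the 3 sets, and that of CALR with GATA1TSS is -0.00, -0.22 and 0.18.

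Another promoter element was found at 2 of the 3 reticulum genes. ATF6 acts with the factor NF-Y at the endoplasmic reticulum stress element, CCAAT followed after 9 bases of any kind by CCACG (both strands searched; each match contains a CCAAT box). It was found in 26 of the 35116 windows, 0.074%, among them those of HSP90B1, with 2 matches, and of CALR, with 1. Neither start of PDIA4 held it, nor any start of a cytosolic gene. Of 15 other reticulum chaperones and folding enzymes in the promoter table, PDIA6 held it. The windows of the 3 genes are shown to set the presence of the element beside its absence, with matches in capitals.
HSP90B1 (chr12:103930160-103930409, plus strand): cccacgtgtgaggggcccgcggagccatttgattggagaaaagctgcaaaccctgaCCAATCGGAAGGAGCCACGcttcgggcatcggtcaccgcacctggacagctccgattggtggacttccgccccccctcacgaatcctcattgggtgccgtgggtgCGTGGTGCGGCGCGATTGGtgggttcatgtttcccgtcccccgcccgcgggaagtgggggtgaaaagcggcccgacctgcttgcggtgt
CALR (chr19:12938359-12938608, plus strand): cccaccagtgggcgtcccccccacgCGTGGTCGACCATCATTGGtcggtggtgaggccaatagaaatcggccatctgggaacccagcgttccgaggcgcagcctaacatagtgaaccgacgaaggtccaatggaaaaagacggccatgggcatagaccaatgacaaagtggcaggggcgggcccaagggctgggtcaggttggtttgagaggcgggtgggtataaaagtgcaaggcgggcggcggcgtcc
PDIA4, first listed start (chr7:149028491-149028740, minus strand): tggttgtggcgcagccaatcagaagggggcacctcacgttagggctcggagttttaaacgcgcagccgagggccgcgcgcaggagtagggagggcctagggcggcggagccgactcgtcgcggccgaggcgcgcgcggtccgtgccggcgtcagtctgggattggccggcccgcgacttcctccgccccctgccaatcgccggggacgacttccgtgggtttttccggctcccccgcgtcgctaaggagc

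The match in CALR lies 206 bases before the start, and those in HSP90B1 lie 175 and 70 bases before it. The window of PDIA4 has 3 CCAAT boxes, and 32.0% of all windows hold at least 1. A GATA motif, AGATAA or TGATAA on either strand, occurred in 14.6% of all windows and at 1 of the 12 member starts, the second of PDIA4.

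**Figure D3:**
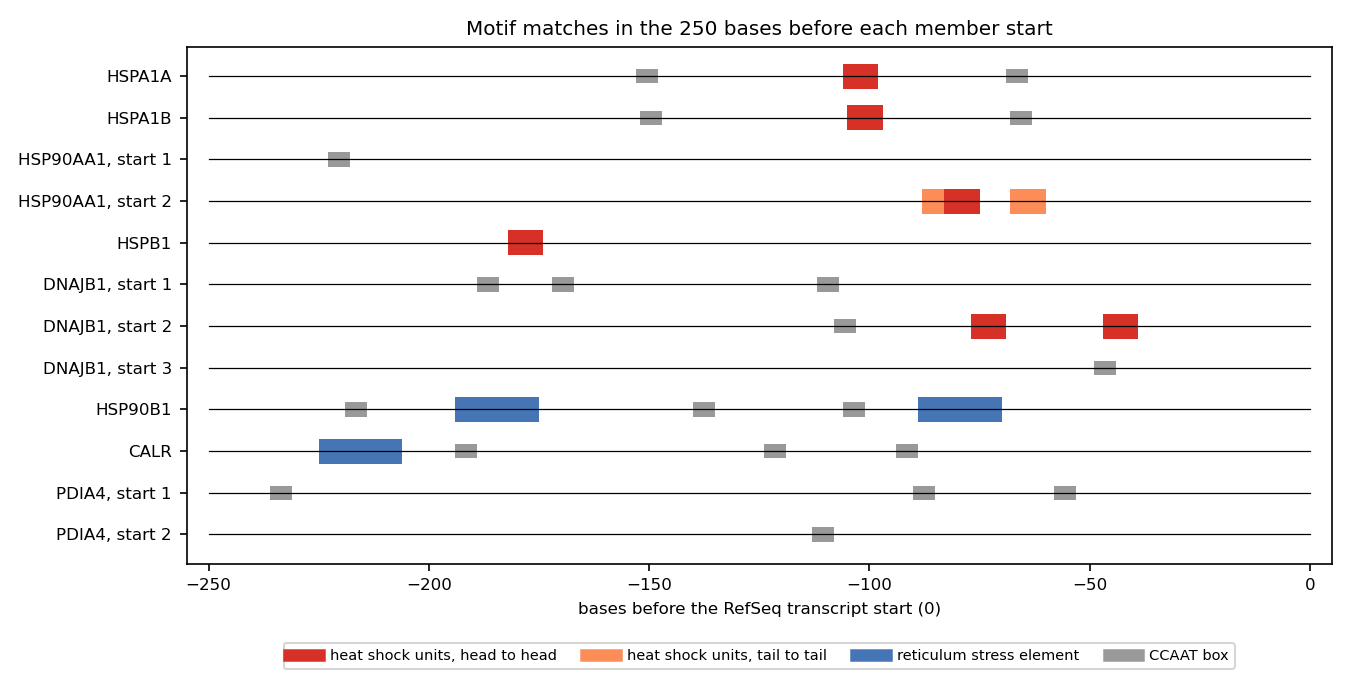
Matches to each motif (coloured boxes) in the 250 bases before each listed RefSeq start of the 8 genes (x axis, bases before the start). Heat shock unit pairs (red, orange) appear at a start of each of the 5 cytosolic genes, and the reticulum stress element (blue) appears in HSP90B1 and CALR.

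HSP90B1, which encodes GRP94, the HSP90 of the reticulum, is at 104324112 to 104341708 on the plus strand of chromosome 12 (hg19), and an exon overlaps the microRNA gene MIR3652 on the same strand. It had 838, 1122 and 1352 CPM in the control libraries, 793, 1037 and 1341 with GATA1TSS and 1074, 1176 and 1405 with eHDAC6. The ranges overlapped throughout. Differences from NC were -0.09 (SE 0.09, edgeR adjusted p = 0.505) and 0.11 (SE 0.09, edgeR adjusted p = 0.366) on the log2 scale. Within GATA1TSS-Guide2 it stood at 912, 1341 and 793 CPM, and the highest of these is the library with the fewest counts. Without that library the GATA1TSS value was -0.22 and was called (edgeR adjusted p = 0.0376). Of the 50-base windows of HSP90B1 8.12% recur in transcripts of other genes.

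CALR, the gene of calreticulin, a lectin chaperone that also stores calcium in the reticulum, is at 13049414 to 13055304 on the plus strand of chromosome 19 (hg19) and has 9 exons. Its values by replicate were 1761, 1576 and 1552 CPM with NC-Guide1, 1168, 1244 and 1272 with NC-Guide2, 1357, 1837 and 2026 with NC-Guide3, and 1168, 1525 and 1555 with NC-Guide4. With GATA1TSS-Guide1 they were 1645, 1635 and 1631, and with GATA1TSS-Guide2 1367, 1337 and 1343. With eHDAC6-Guide1 they were 1792, 1768 and 1790, and with eHDAC6-Guide2 2032, 1975 and 1775. Every eHDAC6 library lay above every GATA1TSS library, and the control libraries covered almost the whole span from 1168 to 2026 CPM. Ordered by mean, the sgRNAs ran from eHDAC6-Guide2 (1928 CPM) through eHDAC6-Guide1 (1784), NC-Guide3 (1740), GATA1TSS-Guide1 (1637), NC-Guide1 (1629), NC-Guide4 (1416) and GATA1TSS-Guide2 (1349) to NC-Guide2 (1228). Neighbours in that order overlapped, except the last pair.

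CALR was higher with eHDAC6 than with all 12 controls by 0.32 on the log2 scale (SE 0.06, edgeR adjusted p = 5.45e-04), in 6 of 6 libraries above the control mean. Against the 4 the difference was 0.10 (SE 0.05, adjusted p = 0.339) and against the other 8 it was 0.50. With GATA1TSS the sign depended on the controls: -0.00 (adjusted p = 0.973) against all 12, -0.22 (SE 0.05, adjusted p = 0.0047) against the 4, and 0.18 against the other 8, each from the edgeR fit. Of the 6 GATA1TSS libraries 0 lay above the mean of the 4 (1735 CPM) and 3 above that of the other 8 (1387 CPM). No 50-base window of CALR recurs in another gene's transcript.

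PDIA4, the disulfide isomerase ERp72, is at 148700154 to 148725782 on the minus strand of chromosome 7 (hg19). It had 483, 560 and 721 CPM in the control libraries, 542, 584 and 653 with GATA1TSS and 638, 665 and 729 with eHDAC6. The eHDAC6 libraries all lay above the control mean, and their range overlapped both other groups. It was higher than NC with eHDAC6 by 0.24 (SE 0.05, edgeR adjusted p = 0.00111) and not called with GATA1TSS (0.05, SE 0.05, edgeR adjusted p = 0.560). With the 4 control libraries as the reference the values were 0.10 and -0.08, neither called.

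Of the 3 reticulum genes, 2 were thus called higher with eHDAC6 against all 12 controls, where 15.8% of all tested genes were called higher. With GATA1TSS 0 of 3 were called, where 27.2% of all genes were called (0 also at an unadjusted p under 0.05, and 0 by DESeq2). Against the 4, 0 of 3 were called with eHDAC6, where 1.49% of all genes were called. CALR was the 1 of 3 called with GATA1TSS against the 4, lower, as for 5.49% of genes. Against the other 8, 4 of 5 cytosolic genes were called with each element, and 2 of 3 reticulum genes with GATA1TSS and 3 of 3 with eHDAC6, all higher. Of all genes 18.9% and 21.3% were called higher there, and 33.1% and 37% in either direction. In the edgeR tests against the 4, CALR and PDIA4 with eHDAC6 had unadjusted p of 0.048 and 0.0475.

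A comparison of eHDAC6 with GATA1TSS uses no control library for its means. All 3 reticulum genes were on the higher side with eHDAC6, and 4 of 5 cytosolic genes on the lower side. CALR was higher with eHDAC6 by 0.32 (SE 0.07, 95% interval 0.17 to 0.47, edgeR adjusted p = 0.0236), where 1.54% of all tested genes were called and 0.89% were called higher. Its libraries did not overlap, as for 0.669% of genes in that direction. HSP90B1 (0.21, SE 0.11, adjusted p = 0.374) and PDIA4 (0.19, SE 0.06, adjusted p = 0.110) were not called in the same edgeR fit, although all 6 eHDAC6 libraries lay above the GATA1TSS mean for each. Of the 5 cytosolic genes 0 were called, also at an unadjusted p under 0.05 and by DESeq2, with values from -0.14 (DNAJB1) to 0.12 (HSPB1). The widest of their 95% intervals, that of HSP90AA1, ran from -0.21 to 0.19.

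The GATA1TSS sgRNAs were then set against each other. GATA1TSS-Guide2, which left 53.1 ± 9.67 CPM of GATA1 against 117 ± 18 with GATA1TSS-Guide1 (n = 3 each), had CALR at 1349 ± 15.8 against 1637 ± 6.80 CPM and PDIA4 at 549 ± 6.34 against 632 ± 19.5. Neither gene overlapped between these sgRNAs, as for 12.9% of all genes in that direction, and neither was called (CALR -0.28, edgeR adjusted p = 0.145; PDIA4 -0.20, adjusted p = 0.191), where 3.57% of all genes were called. HSP90B1 differed by -0.06 (adjusted p = 0.870), and the cytosolic genes by -0.08 to 0.06. Between the eHDAC6 sgRNAs the 8 genes differed by -0.01 to 0.14 and 0 were called, where 0.0152% of all genes were called (edgeR; 0 also at an unadjusted p under 0.05 and by DESeq2). HSPA1A alone did not overlap there (446 to 472 against 486 to 521 CPM), as for 5.48% of genes.

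The element difference in CALR was 0.18 (edgeR adjusted p = 0.838) without GATA1TSS-Guide2 and 0.46 (adjusted p = 0.00502) without GATA1TSS-Guide1, a fit in which PDIA4 was called as well (0.30, adjusted p = 0.0214). Without eHDAC6-Guide1 it was 0.37 (adjusted p = 0.137) and without eHDAC6-Guide2 0.26 (adjusted p = 0.235), both uncalled. It was uncalled too with the element as the group (0.31, adjusted p = 0.306) and, at 0.31 as well, when each sgRNA's counts were pooled into 1 sample. The call was also lost when any 1 of GATA1TSS-Guide1 replicates 2 or 3, GATA1TSS-Guide2 replicate 3, eHDAC6-Guide1 replicates 1 or 3, or eHDAC6-Guide2 replicates 1 or 2 was left out, with values of 0.30 to 0.32 and adjusted p of 0.0538 to 0.0778. PDIA4 was called (0.19, adjusted p = 0.0417) when NC-Guide3 replicate 1 was left out, a library that enters this comparison through the shared estimate of the spread.

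**Figure D4:**
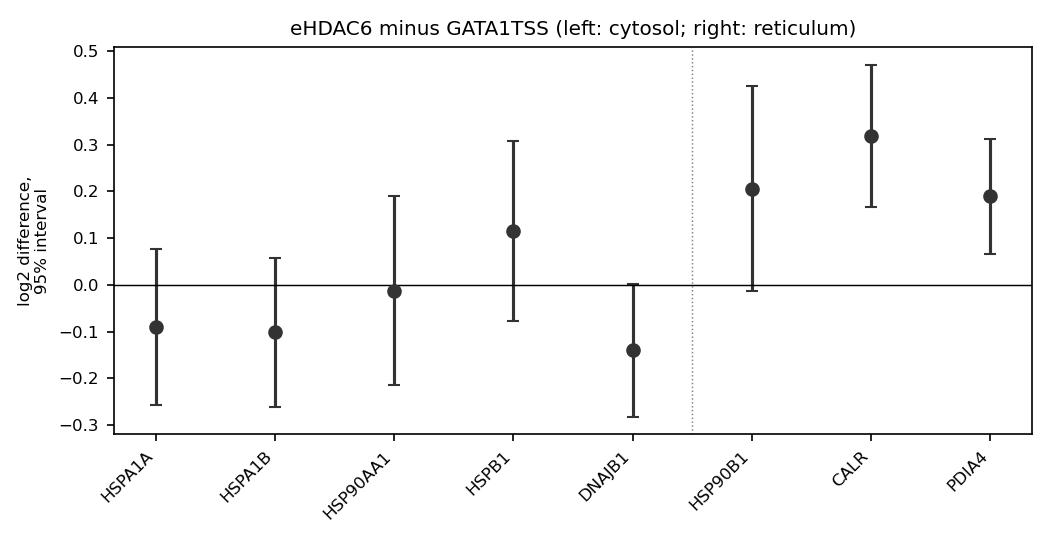
Log2 difference of eHDAC6 minus GATA1TSS (y axis, bars are 95% intervals of the edgeR fit) for each chaperone gene (x axis; cytosol left of the dotted line, reticulum right). The values of the 3 reticulum genes are 0.21, 0.32 and 0.19, and those of the 5 cytosolic genes lie between -0.14 and 0.12.

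Other genes of the same systems were read from lists drawn up by function, and are read against the shares of all tested genes: against all 12 controls 13.5% were called higher and 13.7% lower with GATA1TSS, and 15.8% higher and 15.3% lower with eHDAC6. Against the 4 these shares were 4.92% and 5.49% with GATA1TSS, and 0.891% and 0.594% with eHDAC6. Between the elements 0.89% of genes were called higher with eHDAC6 and 0.647% lower. Among 16 other chaperones and folding enzymes of the reticulum, 14 had a positive difference of eHDAC6 from GATA1TSS, with a median of 0.13 beside -0.00 over all genes. MANF, a secreted protein of the unfolded protein response (0.38, SE 0.09, edgeR adjusted p = 0.0274), and TXNDC5, a disulfide isomerase (0.24, SE 0.05, edgeR adjusted p = 0.0204), were the 2 of 16 called. TXNDC5 was named after its value was seen. Between GATA1TSS-Guide2 and GATA1TSS-Guide1 TXNDC5 was called lower (-0.31, edgeR adjusted p = 0.0245), and MANF was not called (-0.41, edgeR adjusted p = 0.072). Among 22 other HSP70 and HSP90 genes and co-chaperones 3 differences were positive, 0 were called (5 at an unadjusted p under 0.05), and the median was -0.07. In the 14 genes of reticulum quality control and degradation the median was 0.05, and 0 were called (2 at an unadjusted p under 0.05).

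Against all 12 controls, 6 of the 16 other reticulum genes were called lower with GATA1TSS and 0 higher, where 13.7% of all genes were called lower. DNAJB9, a co-chaperone of the reticulum HSP70, fell by 0.41 (SE 0.08, edgeR adjusted p = 1.75e-04), HYOU1, a large HSP70 relative, fell by 0.27, and ERP29 fell by 0.24. Against the 4 controls these were -0.27, -0.13 and -0.10, all uncalled, and 2 of 16 genes were called lower, where 5.49% of all genes were. With eHDAC6 4 were called higher, among them MANF (0.25) and P4HB (0.19), and 2 lower, among them DNAJB9 (-0.23). Against the 4 controls 0 of 16 were called with eHDAC6 (1 at an unadjusted p under 0.05).

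The quality control genes held the largest falls of the reticulum lists. HERPUD1, which organises degradation at the reticulum membrane, fell by 0.77 with GATA1TSS (SE 0.07, edgeR adjusted p = 1.97e-08) and by 0.52 with eHDAC6 (SE 0.07, edgeR adjusted p = 1.09e-05). It was also called against the 4 controls, where the values were -0.55 and -0.31 (adjusted p = 7.49e-06 and 0.0177). SEL1L, its partner in the same ligase complex, was lower as well (-0.69 and -0.54), and against the 4 controls it was called with GATA1TSS (-0.33, adjusted p = 0.00381) and not with eHDAC6 (-0.18, adjusted p = 0.248). SYVN1, the ligase itself, was higher with eHDAC6 (0.32, edgeR adjusted p = 0.00214), and VCP, the ATPase that extracts proteins for degradation, was higher with GATA1TSS (0.19, edgeR adjusted p = 0.00393). Against the 4 neither was called (SYVN1 0.18, adjusted p = 0.232; VCP 0.07, adjusted p = 0.455). In all, 1 of 14 was called higher and 2 lower with GATA1TSS, and 2 higher and 4 lower with eHDAC6, where 27.2% and 31.1% of all genes were called in either direction. Against the 4 it was 2 lower with GATA1TSS and 1 lower with eHDAC6, where 5.49% and 0.594% of all genes were called lower.

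In the cytosol, 5 of the 22 other HSP70, HSP90 and co-chaperone genes were called higher and 0 lower with GATA1TSS, where 13.5% of all genes were called higher. Against the 4 it was 1 higher and 1 lower with GATA1TSS and 0 with eHDAC6 (2 at an unadjusted p under 0.05, edgeR), where 10.4% and 1.49% of all genes were called. DNAJB4 (0.37), CDC37, which brings kinases to HSP90 (0.24), and DNAJA1 (0.23) had the largest values, and against the 4 they were 0.11, 0.09 and 0.18, none called. With eHDAC6 1 was called higher, CDC37 (0.24), and 3 lower, among them HSPA4L (-0.22) and CACYBP (-0.19). The list medians were 0.09 and 0.04. Of 11 subunits of the TRiC chaperonin and of prefoldin, which fold actin and tubulin, 0 were higher in either comparison, 1 was lower with GATA1TSS (VBP1, -0.21) and 3 were lower with eHDAC6 (VBP1, -0.26; CCT2, -0.13; CCT4, -0.13), where 13.7% and 15.3% of all genes were called lower. Against the 4 0 of 11 were called with either element (0 and 2 at an unadjusted p under 0.05, edgeR).

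Of 8 mitochondrial chaperones and proteases, 4 were called lower with GATA1TSS and 2 with eHDAC6, and 0 higher, where 13.7% and 15.3% of all genes were called lower. Against the 4 it was 3 lower with GATA1TSS and 0 with eHDAC6 (3 at an unadjusted p under 0.05, edgeR), where 5.49% and 0.594% of all genes were called lower. LONP1, a protease of the mitochondrial matrix, fell by 0.77 with GATA1TSS (SE 0.12, edgeR adjusted p = 6.37e-05) and by 0.59 with eHDAC6, and HSPA9, the mitochondrial HSP70, was lower in both (-0.51 and -0.50). Both genes were higher in the 8 control libraries than in the 4 without overlap, as for 5.9% of all genes, 523 ± 74.2 against 328 ± 7.48 CPM for LONP1 and 642 ± 41.1 against 445 ± 9.86 for HSPA9. Against the 4, LONP1 was called with GATA1TSS (-0.30, adjusted p = 4.16e-04) and not with eHDAC6 (-0.12, adjusted p = 0.295), and HSPA9 was called with neither (-0.15 in both).

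Of 10 regulators of both responses, 1 was called higher and 2 lower with GATA1TSS, and 1 higher and 4 lower with eHDAC6, where 27.2% and 31.1% of all genes were called in either direction. Against the 4 it was 1 higher and 1 lower with GATA1TSS and 0 with eHDAC6 (2 at an unadjusted p under 0.05, edgeR), where 10.4% and 1.49% of all genes were called. HSF1 and XBP1 are not among the 10. On the heat shock side, HSF2 (-0.04, edgeR adjusted p = 0.784) and HSBP1 (-0.12, edgeR adjusted p = 0.103) were not called with GATA1TSS against all 12. Their values with eHDAC6, where 4 of the 10 were called lower, are not given here. ERN1, the kinase IRE1 that senses unfolded protein in the reticulum, was lower by 0.47 with GATA1TSS (edgeR adjusted p = 1.12e-04) and by 0.35 with eHDAC6 (edgeR adjusted p = 0.00265), and was not called against the 4 (-0.23 and -0.10). MBTPS2 was called lower (-0.26) and CREB3 higher (0.31) with eHDAC6, and against the 4 neither was called (-0.02 and -0.03). ATF6 fell by 0.30 with GATA1TSS and was also called against the 4 (-0.19, adjusted p = 0.0282). Its value with eHDAC6 is not given here. CREB3L2, a membrane-bound factor of the secretory pathway, was higher with GATA1TSS by 0.32, and by 0.37 against the 4 (adjusted p = 5.36e-05). The 12 genes of the integrated stress response were called lower 12 times with GATA1TSS and 11 times with eHDAC6 against all 12 controls, and 11 and 4 times against the 4. Of all genes 13.7% and 15.3% were called lower against all 12, and 5.49% and 0.594% against the 4. ASNS, the asparagine synthetase of that response, had values of -2.19 and -1.76, and -0.89 and -0.46 against the 4. Of 10 genes listed as immediate early genes, which answer to growth signals and handling, 4 were called higher and 2 lower with GATA1TSS, and 1 higher and 2 lower with eHDAC6, where 27.2% and 31.1% of all genes were called in either direction. Against the 4 it was 2 higher and 1 lower with GATA1TSS and 0 with eHDAC6 (2 at an unadjusted p under 0.05, edgeR), where 10.4% and 1.49% of all genes were called. DUSP12 (-0.11 with GATA1TSS, uncalled), 1 of the 10, is not an immediate early gene. FOS and FOSB, 2 of the 4 called higher with GATA1TSS against all 12, averaged only 1.71 and 1.06 CPM.

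**Figure D5:**
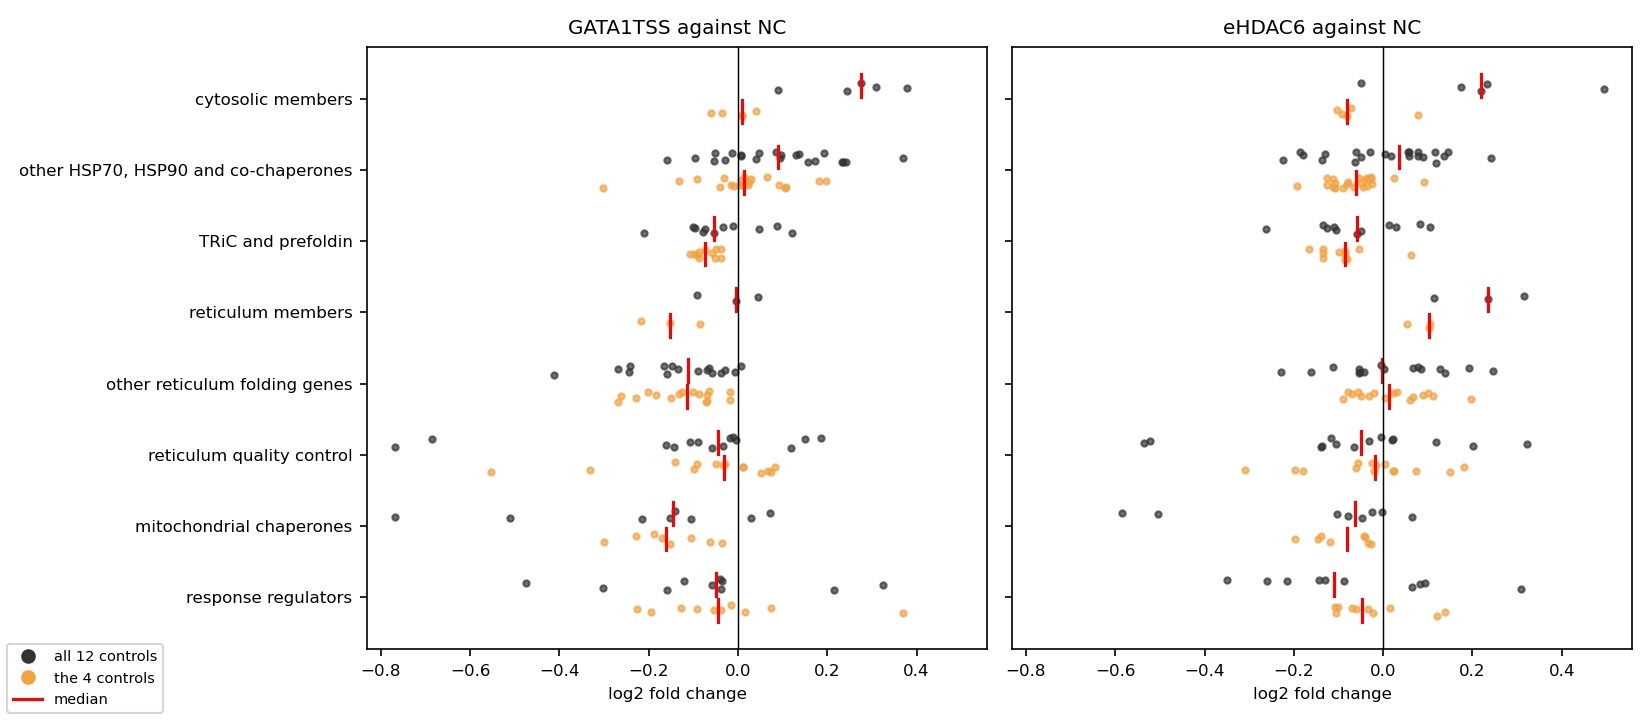
Log2 fold change (x axis) of each tested gene of 8 lists (y axis) for GATA1TSS (left) and eHDAC6 (right), against all 12 control libraries (dark points) and against the 4 (orange points), with red bars at the medians. The median of the cytosolic members with GATA1TSS is 0.28 against all 12 and 0.01 against the 4, and that of the other reticulum folding genes is -0.11 against both.

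The genes whose log2 CPM ran most like the mean of the reticulum members over the 24 libraries were SEC23A, a subunit of the vesicle coat that leaves the reticulum (Pearson r 0.907), SAT1 (0.893), ARCN1, a subunit of the coat of vesicles that return to it (0.889), FAM8A1 (0.889) and MPP1 (0.882), out of 9954 genes ranked. Those most like the cytosolic members were PSME2, a proteasome activator subunit (0.950), LCP1 (0.941), RAB5C (0.937), CAPZB (0.934) and NQO1 (0.931). By rank (Spearman) these cytosolic values were lower, 0.723, 0.809, 0.757, 0.708 and 0.797 in the same order. The reticulum values by rank were 0.880, 0.883, 0.838, 0.907 and 0.864. The libraries share sgRNAs and the split of the controls, so these values describe the 24 libraries and carry no test.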

How the data were processed

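RNA was measured in 24 libraries of 10000 lysed K562 cells each, by strand-specific paired-end sequencing. The values are raw counts per gene as deposited by the authors. Per the submitters' processing notes reads were on hg19 and SAMtools 0.1.19, Picard, TopHat2 2.0.8 and Bowtie2 2.1.0 were used. Which tool counted the reads, and whether it used strand, is not given in the sources used here, and 21 gene entries carry a date for a symbol. Reads of near-identical genes can be lost or split by alignment and counting, which touches HSPA1A and HSPA1B.

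Tests ran in R 4.3.3 with edgeR 4.0.16: trimmed-mean scaling, a filter on low values (filterByExpr by sgRNA, minimum count 10), a robust quasi-likelihood fit with 1 coefficient per sgRNA over all 24 libraries, and Benjamini-Hochberg adjustment over 13147 genes, called at an adjusted p under 0.05. An element is the mean of its sgRNAs. In this fit SE and p measure the spread among libraries of the same sgRNA and leave out that between sgRNAs. Comparisons with the 4 or the other 8 control libraries refit the targeted and those control libraries. The NC sgRNAs present weigh equally, so NC-Guide3 and NC-Guide4 enter the other 8 through 1 library each, at the weight of NC-Guide1 or NC-Guide2. These sets were found in the same data, which the p against them does not allow for. CPM uses the scaled library totals, and the median total was 13479250.5 counts. The fit was tested on simulated counts first.

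Genes named outside the members are, per list and element, up to 3 called genes with the largest change and at least 5 CPM on average, and the 5 genes most like each compartment's mean log2 CPM (prior count 2). The members and lists were chosen with earlier results of these data known. Promoter windows are RefSeq's on GRCh38.p14, and no sequence was carried between builds. Same-numbered replicates do not share a source in the labels, and the fits take them as unpaired. DESeq2 1.42.0, other filters and scalings, and leaving out each library or sgRNA were the alternatives.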

Additional observations from a re-analysis of the deposited data

Results flagged for a closer look

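In the GATA1TSS group of 6 libraries, HSPA1B had 1 library far from the others: GATA1TSS-Guide2 replicate 2, at 555 CPM, where the gap to the next library was 0.641 of the whole range, past Dixon's 95% critical value for 6 libraries. That library has the fewest counts of all 24. Chance sets a library apart in this way in about 1 of 20 groups. The gap was looked at for each of the 8 members and for GATA1, with each element, and only this one passed. The group also pools GATA1TSS-Guide1 and GATA1TSS-Guide2, which left unequal levels of GATA1. CALR differed between the elements, 0.32 higher with eHDAC6 than with GATA1TSS on the log2 scale by the edgeR contrast of the 2 elements. GATA1 differed between them by 1.67 in the same test, lower with GATA1TSS.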

How the results depend on the processing

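The 4 called cytosolic genes and the sign of CALR depended on which control libraries were used. Against only the 4, 1 member was called with GATA1TSS and 0 with eHDAC6, of 1366 and 195 genes, and the signs turned for GATA1TSS in HSP90AA1 (-0.060) and HSPB1 (-0.036) and for eHDAC6 in HSPA1A (-0.081), HSPA1B (-0.092) and HSP90AA1 (-0.073). Against only the other 8, CALR with GATA1TSS turned to 0.18. The cause was not tested. Of 1592 member values under all alternatives, 1471 kept their side of the threshold without a reversal of a called value (37 of them were uncalled both times with another sign), 104 lost the call, 11 gained it and 6 reversed.

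With the element as the group, called members fell to 3 (eHDAC6 against NC) and 0 (eHDAC6 against GATA1TSS, of 13 genes). For the former the number over all genes is not given here, and in the main fit it was 4086. Summing the counts per sgRNA leaves fewer samples and puts the spread between sgRNAs into the test. With these sums, 0, 0 and 0 members were called in the 3 element comparisons, of 664, 238 and 0 genes. DESeq2 called 406 genes between the elements and 2744 between the NC sgRNAs, in place of 202 and 1607. With no filter on low counts 1 gene in place of 2 differed between the eHDAC6 sgRNAs, and HSP90AA1 lost its calls against NC (adjusted p = 0.0607 and 0.0746).

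Without GATA1TSS-Guide1, 2 members and 937 genes were called between the elements. Without GATA1TSS-Guide2 these were 0 and 4, and against NC 2 and 1612. Without NC-Guide1, 3 members were called with eHDAC6, and the number over all genes is not given here. Without NC-Guide2, 2572 genes were called with eHDAC6. Without eHDAC6-Guide1, 2206 genes were called against NC, and 0 members and 31 genes between the elements. Without eHDAC6-Guide2 it was 3 members and 1959 genes against NC, and 0 members and 41 genes between the elements.

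Leaving out 1 library at a time gave 260 to 3269 genes and 2 to 6 members between the NC sgRNAs, 2858 to 3966 genes and 3 to 4 members for GATA1TSS against NC, 3238 to 4600 genes and 4 to 6 members for eHDAC6 against NC, 70 to 357 genes and 0 to 2 members between the elements, 181 to 622 genes between the GATA1TSS sgRNAs, and 0 to 2 genes between the eHDAC6 sgRNAs. The fewest genes between the NC sgRNAs came without NC-Guide2 replicate 1 and the most without NC-Guide3 replicate 1, and the same extremes between the elements came without GATA1TSS-Guide1 replicate 2 and NC-Guide3 replicate 1. In the NC sgRNA test HSPA1A was lost in 19 of 24 such fits. The calls of HSPA1A and HSPB1 against all 12 NC, and those of CALR and PDIA4 with eHDAC6, were lost in 0 of 24.

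The replicate numbers paired few of the libraries. Of 84 same-numbered pairs 8 correlated over 0.1, with a median r of 0.0158 and a highest r of 0.431. Differently numbered pairs had a median r of -0.00592, and 7 of 24 libraries correlated best with their own number. In NC-Guide3 and NC-Guide4 the split of the controls did follow the number: replicate 1 of each stood apart from replicates 2 and 3. NC-Guide1 and NC-Guide2 were not split. With the replicate number as a block, CALR between the elements was 0.32 (edgeR adjusted p = 0.0238), and of the member calls only HSPA1B in the test between NC sgRNAs changed, to an adjusted p of 0.0487.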
